A study of Mus musculus with 12 samples.

Results

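Induced pluripotent stem cells (iPSCs) were compared with embryonic stem cells (ESCs) by the small RNA libraries of each cell type. A miRNA was included when its value lay above the lowest value of the deposited table, which stands for no read, in at least 2 of the 5 libraries. That held for 864 of the 1042 miRNAs in the table. The ESCs were 3 libraries of the mouse line E14 (strain 129/ola), named here ESC 2, ESC 3 and ESC 4. The iPSCs were 2 libraries, iPSC 62 and iPSC 63, of cells made from mouse embryonic fibroblasts (MEFs, C57B6/129SvJae F1) with a lentivirus carrying Oct4, Sox2, Klf4 and c-Myc under doxycycline control. Set beside them in places were 3 MEF libraries and 2 libraries each of cells made from the same MEFs by transfer of a MEF nucleus (NT-ESCs) or of an iPSC nucleus (NT-iPSCs) into an oocyte. ESCs, iPSCs, NT-ESCs and NT-iPSCs all grew on irradiated MEFs as feeder cells in medium with leukaemia inhibitory factor. The libraries of a type were batches of RNA of 1 line, so the p values below measure the spread between such batches, and line, strain, library preparation and cell type cannot be told apart.

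A miRNA is a short RNA that guides Argonaute proteins to messenger RNAs, mainly through its seed, the bases at positions 2 to 8. Each hairpin precursor gives a 5p and a 3p arm, and usually 1 of them is kept. Mouse ESCs are known for the miR-290 cluster and, at a later stage of pluripotency, for the miR-302 cluster, whose main seed resembles that of the miR-17 family. These miRNAs favour passage through the cell cycle. The let-7 family does the opposite and accompanies differentiation. Several large groups of miRNAs lie in imprinted loci, where only the copy from 1 parent is transcribed, among them those of the Dlk1-Dio3 locus and of an intron of Sfmbt2.

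The sequences of the miRNAs to which the results return are given first, from RefSeq, 5′ to 3′, with the seed in capitals. The seed AAGUGCU is shared by 3p arms of the miR-290 and miR-302 clusters, and its carriers moved in different directions.
miR-291a-3p: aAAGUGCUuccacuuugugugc
miR-294-3p: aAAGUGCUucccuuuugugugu
miR-295-3p: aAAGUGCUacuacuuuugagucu
miR-302b-3p: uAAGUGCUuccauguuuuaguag
miR-302d-3p: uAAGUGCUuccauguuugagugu

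The seed AAAGUGC, shifted by 1 base, is that of the miR-17 family, whose 6 members on 3 clusters were all lower in iPSCs.
miR-17-5p: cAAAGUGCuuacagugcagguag
miR-20a-5p: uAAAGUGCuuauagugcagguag
miR-106a-5p: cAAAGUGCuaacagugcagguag
miR-20b-5p: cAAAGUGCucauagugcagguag
miR-93-5p: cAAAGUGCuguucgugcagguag
miR-106b-5p: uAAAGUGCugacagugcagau

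The miR-183 cluster held the most reads in ESCs, and its 3 main arms resemble each other around the seed.
miR-183-5p: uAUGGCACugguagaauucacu
miR-182-5p: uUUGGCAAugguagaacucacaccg
miR-96-5p: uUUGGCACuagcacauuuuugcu

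The pair miR-103-3p and miR-107-3p shares its seed and differs at 1 of 23 positions (G22C, counted from the 5′ end of miR-103-3p), yet the members differed by unequal amounts between iPSCs and ESCs.
miR-103-3p: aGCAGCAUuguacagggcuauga
miR-107-3p: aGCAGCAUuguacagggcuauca

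Both arms of miR-381 and of miR-376a are shown because the arms of each hairpin moved in opposite directions.
miR-381-5p: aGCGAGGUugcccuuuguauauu
miR-381-3p: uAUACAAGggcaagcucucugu
miR-376a-5p: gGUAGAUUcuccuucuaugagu
miR-376a-3p: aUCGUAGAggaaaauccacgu

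The deposited values (VST) are reads that the authors normalized and passed through the variance stabilizing transformation of DESeq, which gives a log2 scale. The reads behind them could be recovered and numbered 4863365 to 5771398 on miRNAs per ESC library, 5293867 in iPSC 62 and 6088839 in iPSC 63. A count of 3 reads in a library was taken as the limit for lower bounds, and this limit covers counting error only, since amplified reads are not independent molecules. At least 10 reads were found for 575 to 586 miRNAs per ESC library and for 629 and 631 in the iPSC libraries. The 10 most abundant miRNAs held 52.2% to 52.7% of the reads in ESC libraries and 42.1% and 42.9% in iPSC libraries. The labels of pluripotent cells and of MEFs were checked with the miR-290 cluster. It took up 10.1% to 12.1% of the reads in ESCs and 16.4% and 20.7% in iPSCs, against at most 0.00125% in a MEF library. Since both pluripotent types held it, this does not check the labels of ESCs and iPSCs against each other.

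Most miRNAs differed between iPSCs and ESCs. A minimum of 10 reads in 2 or more of the 12 libraries left 732 miRNAs, 730 of them among the 864, and 555 of the 732 had an adjusted p under 0.05 (75.8%; limma with Benjamini-Hochberg adjustment). Of these, 291 were higher in iPSCs (39.8%) and 264 lower (36.1%). A difference is the mean VST of iPSCs minus that of ESCs, in log2 units, and 502 of the calls had a size of at least 1. Differences of at least 4 were found for 82 higher and 63 lower. Over all 732 the median difference was 0.22 (0.37 with upper quartile scaling and 0.64 with scaling by library totals), the median size 2.05 and the range -8.88 to 8.13. In 619 miRNAs (84.6%) the iPSC libraries did not overlap the ESC libraries, 325 of them higher and 294 lower. Of the 864, 175 were tested without a call, and 134 were below this minimum, with at most 20 reads in any of the 5 libraries. Of the latter, 73 overlapped between the types, 35 lay higher in iPSCs and 26 lower without overlap.

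Some miRNAs were at the limit of 3 reads or below in every library of 1 type and above it in every library of the other. That held for 37 miRNAs seen in iPSCs and 28 seen in ESCs. The former were led by members of the Sfmbt2 cluster: miR-669m-3p had 1 to 3 reads in ESC libraries and 248 and 286 in iPSC libraries, at least 61-fold more, and miR-669l-3p had 0 reads in every ESC library and 119 and 146 in iPSCs, at least 30.3-fold more. The 3p arm of miR-106a was at least 33.7-fold higher in iPSCs, with 142 and 153 reads. In the other direction miR-463-3p, of an X-linked cluster known from the testis, had 63 to 143 reads in ESC libraries and 0 and 2 in iPSC libraries, at least 53.3-fold fewer in iPSCs.

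The 10 leading miRNAs higher in iPSCs came from several loci. The first, miR-129-2-3p, a miRNA known from neurons, had a VST of 6.05, 6.08 and 6.10 in ESC libraries and of 12.74 and 13.13 in iPSC libraries. Its difference of 6.86 (standard error 0.22, adjusted p = 6.22e-10, limma) was far beyond the spread between libraries of a type. Its hairpin lies on chromosome 2 at chr2:94241364-94241453 (minus strand, GRCm38.p6) in an intron of the noncoding gene Mir670hg (GENCODE M21). In MEFs its mean was 7.26 ± 0.35 (SD, n = 3), closer to ESCs than to iPSCs. Another 4 were arms of the Dlk1-Dio3 locus. Of these miR-433-3p (chr12:109591715-109591838, opposite to an exon of Rtl1) had the most reads, with 12.76, 12.57 and 12.41 in ESCs and 17.47 and 17.67 in iPSCs, and rose from 0.0255% to 1.08% of the reads. The differences of miR-665-3p, miR-337-3p and miR-299-5p were 5.93, 5.70 and 5.78. The others were miR-598-3p at 5.64, miR-29c-3p at 5.63, miR-107-3p at 6.18, and miR-669a-3p and miR-669o-3p, which had the same value in every library and cannot be told apart, at 4.10.

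The 10 leading miRNAs lower in iPSCs were led by miR-183-5p and miR-182-5p of the miR-183 cluster, described below, and by miR-140-5p. The last is a miRNA of cartilage whose hairpin lies in Wwp2 (chr8:107551244-107551313). The VST of miR-140-5p was 14.18, 14.32 and 14.14 in ESCs and 6.18 and 6.12 in iPSCs, a difference of -8.06 (standard error 0.17, adjusted p = 2.66e-11, limma). Both types were tight and far apart, and the MEF mean of 14.61 ± 0.041 (SD, n = 3) lay near the ESCs. Another 3 came from the Hox clusters, the gene clusters that set position along the body axis. miR-196a-5p, which represses Hox genes, had 18.15, 17.87 and 17.54 in ESCs and 10.95 and 10.92 in iPSCs, and its share of reads fell from 0.999% to 0.0109%. miR-196b-5p (chr6:52230081-52230165, in an exon of Hoxa9) differed by -5.64 and miR-10b-5p (chr2:74726070-74726137, in an intron of Hoxd3 and Hoxd4) by -5.10. The remaining members were miR-24-2-5p at -6.50, miR-100-5p at -4.33, miR-148a-3p at -4.55 and miR-28-3p at -3.76. In all 10 the MEF mean lay nearer to ESCs than to iPSCs or above ESCs, apart from miR-183-5p and miR-182-5p.

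**Figure D1:**
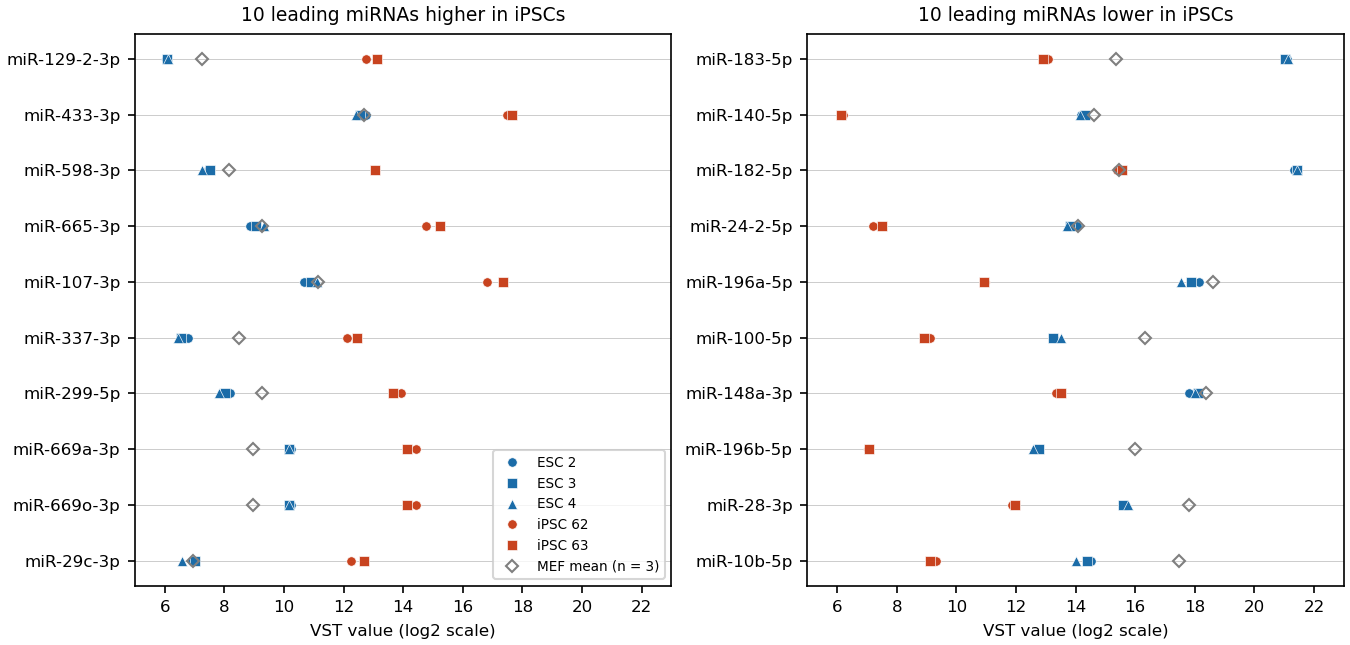
VST values (log2 scale, horizontal axis) of the 10 leading miRNAs in each direction, by smallest p, 1 point per ESC or iPSC library and an open diamond for the MEF mean. The libraries of each type lie together, and for miR-183-5p the iPSC libraries at 13.07 and 12.91 stand far from the ESC libraries at 21.03 to 21.13.

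The miR-290 cluster lies within a few kilobases on chromosome 7 (miR-291b to miR-295, chr7:3219482-3220841), opposite to exons of Nlrp12. As a whole it took up 11.0% ± 1.05 of the reads in ESCs (SD, n = 3) and 18.6% ± 3.0 in iPSCs (SD, n = 2), without overlap, but its arms moved apart. Of its 14 arms 6 were higher in iPSCs, 1 was lower and 7 had no call. This is 50% called, beside 75.8% called, 39.8% higher and 36.1% lower over all miRNAs. The median difference was 1.01, beside 0.22 over all miRNAs. miR-290-5p had 15.82, 15.80 and 16.13 in ESCs and 19.22 and 19.96 in iPSCs, a difference of 3.67 (standard error 0.69, adjusted p = 5.06e-04, limma), and reached 4.47% of the iPSC reads from 0.259% in ESCs. The arms miR-294-5p, miR-291b-5p and miR-295-5p were higher by 4.43, 3.64 and 2.22. In the other direction miR-291a-3p, a carrier of the seed AAGUGCU, had 18.45, 18.59 and 18.85 in ESCs and 15.29 and 15.27 in iPSCs, a difference of -3.35 (standard error 0.71, adjusted p = 1.17e-03, limma). miR-294-3p, with the same seed, had 16.16, 15.96 and 16.43 in ESCs and 18.19 and 18.89 in iPSCs.

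The calls in this cluster depended on the libraries fitted. In the model of all 12 libraries the spread includes that of the MEF libraries, which held almost no reads of these arms. With only the 5 ESC and iPSC libraries, 9 of the 14 arms were higher, 2 lower and 3 without a call. The shares over all miRNAs given above belong to the model of all 12 libraries and not to the fit of 5 libraries. The arms called in that fit alone were miR-292-5p (difference -2.89, adjusted p = 1.21e-05, against 0.0958 in the model of all libraries), miR-292-3p (1.77, adjusted p = 3.54e-04, against 0.17), miR-291a-5p (0.53, adjusted p = 0.0133, against 0.658) and miR-293-5p (0.69, adjusted p = 0.014, against 0.461), all by limma. The call of miR-294-3p (2.36, adjusted p = 0.042, limma) was lost when any 1 of the 5 libraries was left out, at 2.70 without iPSC 62, 2.01 without iPSC 63, 2.34 without ESC 2, 2.25 without ESC 3 and 2.48 without ESC 4. The most abundant member of the cluster, miR-293-3p, had 19.50, 19.57 and 19.62 in ESCs and 19.73 and 20.23 in iPSCs, with no call in either fit.

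The miR-302 cluster lies at chr3:127545228-127545807, in an intron of Larp7 on the opposite strand. It was rare in both types, at 0.0194% of the reads in ESCs and 0.143% in iPSCs, with 0.0190% to 0.0199% in ESC libraries and 0.141% and 0.144% in iPSC libraries. Of 9 arms tested 8 were higher in iPSCs and 1 had no call (88.9% called, beside 75.8% called and 39.8% higher over all miRNAs), with a median difference of 3.39; the tenth, miR-367-5p, had too few reads for a test. miR-302d-3p had 6.58, 6.90 and 6.66 in ESCs and 12.38 and 12.82 in iPSCs, a difference of 5.89 (standard error 0.29, adjusted p = 6.42e-09, limma). Its 5p arm differed by 5.73, and miR-302b-5p, with 0 reads in every ESC library and 20 and 16 in iPSCs, was at least 4.11-fold higher. miR-302b-3p, the most abundant arm in ESCs, had 11.66, 11.62 and 11.62 there and 11.29 and 11.31 in iPSCs, where its difference of -0.33 had no call (adjusted p = 0.707; 0.0469 with only the 5 libraries, limma). It differs from miR-302d-3p at 3 of 23 positions (U18G, A22G and G23U, counted from the 5′ end of miR-302b-3p). The call of miR-367-3p (1.01, adjusted p = 0.0189, limma) was lost without iPSC 62 (0.56) and without ESC 2 (0.97).

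**Figure D2:**
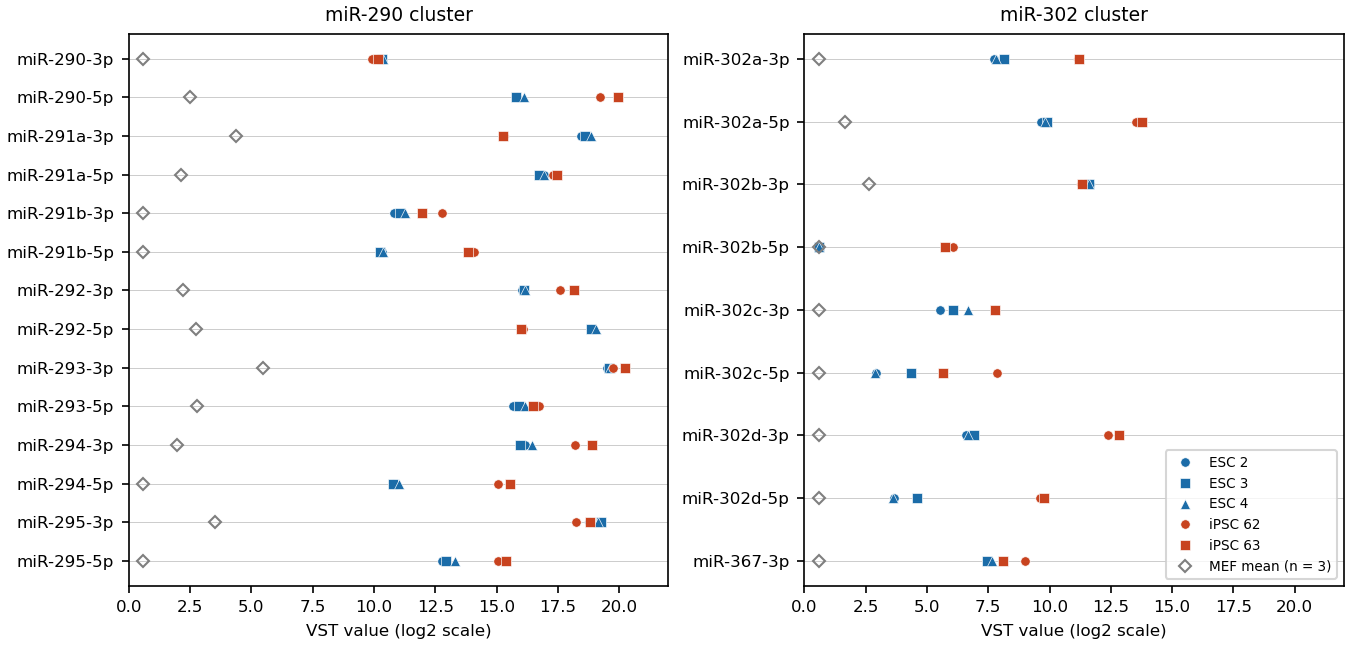
VST values (log2 scale, horizontal axis) of the tested arms of the miR-290 and miR-302 clusters, 1 point per ESC or iPSC library and an open diamond for the MEF mean. miR-291a-3p lies lower in iPSCs, at 15.29 and 15.27, while miR-294-5p, at 15.05 and 15.53, lies higher than its ESC libraries at 10.76 to 11.04.

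The miR-17 family drives proliferation and is transcribed under the control of Myc. Its 6 members with the seed AAAGUGC were all lower in iPSCs, beside 36.1% lower over all miRNAs, with differences from -5.32 to -3.05. miR-20a-5p had 17.61, 17.82 and 17.74 in ESCs and 12.92 and 11.89 in iPSCs (difference -5.32, standard error 0.25, adjusted p = 5.26e-09, limma), and miR-93-5p, the most abundant in ESCs, had 18.66, 18.82 and 18.58 against 15.44 and 15.55. The others differed by -3.74 (miR-17-5p), -3.52 (miR-106a-5p), -3.76 (miR-20b-5p) and -3.05 (miR-106b-5p). Among their cluster neighbours, those with the seed AUUGCAC moved in both directions. miR-25-3p, made from the same Mcm7 transcript as miR-93-5p (chr5:138165321-138165404), had 14.77, 15.02 and 15.12 in ESCs and 19.02 and 19.09 in iPSCs, and rose from 0.134% to 3.04% of the reads. miR-92a-3p, which shares the Mir17hg transcript with miR-17-5p (chr14:115043671-115044506 for the cluster), differed by 3.22 (standard error 0.22, adjusted p = 9.08e-08, limma). It also has a hairpin in the miR-106a-363 cluster on chromosome X, so its reads cannot be assigned to 1 of the clusters. Of the 6 tested miRNAs with this seed 4 were higher (miR-25-3p, miR-92a-3p, miR-92b-3p and miR-367-3p) and 2 lower (miR-32-5p and miR-363-3p), between -2.25 and 4.09. Over all miRNAs 75.8% were called, 39.8% higher and 36.1% lower. As given above, the call of miR-367-3p was lost when some single libraries were left out.

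By cluster, 9 of the 12 arms of miR-17-92 were lower and 3 higher, with a median of -2.44, beside 36.1% lower and 39.8% higher over all miRNAs. The 3 were miR-92a-3p, miR-92a-1-5p at 0.95 and miR-19a-5p at 3.09, and the call of miR-17-3p (-0.75, adjusted p = 7.97e-03, limma) was lost without iPSC 62 (-0.51). The miR-106a-363 cluster had 4 arms higher, 5 lower and 1 without a call, and the miR-106b-25 cluster 3 higher and 3 lower. The summed share of miR-17-92 was 1.90% to 2.07% in ESC libraries and 2.80% and 1.87% in iPSC libraries, so that the types overlapped, and miR-92a-3p, with its 2 hairpins, supplied 2.04% of the reads in iPSCs and 0.16% in ESCs.

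The miR-183 cluster, known from sensory organs and also made in mouse ESCs, lay far lower in iPSCs. It took up 20.8%, 20.1% and 22% of the reads in ESC libraries and 0.376% and 0.332% in iPSC libraries, where the MEF libraries had 0.184% to 0.214%. miR-183-5p (chr6:30169668-30169737) had 21.08, 21.03 and 21.13 in ESCs and 13.07 and 12.91 in iPSCs, a difference of -8.09 (standard error 0.13, adjusted p = 3.07e-12, limma). miR-182-5p (chr6:30165918-30165992) had 21.33, 21.43 and 21.42 against 15.39 and 15.55. Of the 6 arms 5 were lower and 1 had no call (83.3% called, beside 75.8% called and 36.1% lower over all miRNAs), with a median of -2.50, but the 3p arms differed by less: miR-183-3p by -2.21 and miR-182-3p by -0.90, whose call (adjusted p = 0.0359, limma) was lost without either iPSC library or without ESC 3 or ESC 4 (-1.05 to -0.76). miR-96-5p differed by -2.78.

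The lists of imprinted loci included the longest of the 26, the Dlk1-Dio3 locus and the Sfmbt2 cluster, and both had more arms higher than lower in iPSCs, beside 39.8% higher and 36.1% lower over all miRNAs. In the cluster of an intron of Sfmbt2, known from the placenta, 54 of 73 tested arms were higher, 4 lower and 15 without a call, with a median of 2.34. Its share of reads was 0.550% to 0.690% in ESC libraries and 10.1% and 7.54% in iPSC libraries. A single arm, miR-669c-5p, had 15.74, 15.43 and 15.21 in ESCs and 20.30 and 20.04 in iPSCs, where it held 6.65% of the reads on average. It was the most abundant miRNA in iPSC 62, with 408721 reads, but in iPSC 63 it had 339578 against 388482 of miR-293-3p. Many members of this cluster are near copies of each other, and reads that match several of them cannot be assigned with certainty. Several entries had the same difference, such as miR-297a-3p, miR-297b-3p and miR-297c-3p at 6.78 each. The 73 arms are therefore not all separate measurements, and the counts and the median hold some of them more than once. In the Dlk1-Dio3 locus, which is known to be silenced in some iPSC lines, 55 of 96 arms were higher, 25 lower and 16 without a call, with a median of 1.48, and the summed share was 10.8% to 11.6% in ESCs and 15.5% and 15.7% in iPSCs. The arms of the locus ranged from miR-381-3p at -6.83 to miR-540-5p at 7.65. By mean share its most abundant member in ESCs was miR-379-5p, which fell from 3.72% to 0.444% of the reads (difference -3.50), although miR-541-5p had more reads in ESC 4 (175209 against 145899). In iPSCs it was miR-127-3p, which rose from 0.753% to 2.37% (difference 1.23). Of 14 tested arms from other imprinted loci 6 were higher and 4 lower, among them miR-675-5p, made from H19 (chr7:142577064-142577147), with 0 or 1 read in ESC libraries and 41 and 46 in iPSCs, at least 9.93-fold higher.

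Of 9 arms of the Hox clusters 7 were lower, 1 was higher (miR-196b-3p, with 0 reads in ESCs and 2 and 8 in iPSCs) and 1 had no call, with a median of -3.34, beside 36.1% lower, 39.8% higher and 75.8% called over all miRNAs, against which the counts of the next families are also set. The call of miR-10b-3p (-3.34, adjusted p = 4.63e-03, limma) was lost without iPSC 63 (-1.52). The X-linked miR-465/miR-743/miR-880 cluster had 17 of 27 arms lower, 2 higher and 8 without a call, with a median of -2.51 (70.4% called). The arms miR-465a-3p, miR-465b-3p and miR-465c-3p have 1 sequence and nearly the same reads, so they are not separate measurements. The share of the cluster went from 0.440% ± 0.0696 (SD, n = 3) to 0.0645% ± 0.0205 (SD, n = 2). The miR-30 family had 9 of 11 arms lower (median -2.14, 90.9% called) and the miR-148/miR-152 family 4 of 6 (median -4.02, 66.7% called). The miR-200 family, which keeps the epithelial state, had 6 of 9 arms lower and 1 higher, miR-200a-3p at 0.90.

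Higher in iPSCs were 6 of 8 arms of the miR-34/miR-449 family, whose miR-34 members are targets of p53, with a median of 3.03, beside 39.8% higher over all miRNAs. Of these, miR-449c-5p had 2.92, 4.33 and 4.72 in ESCs and 10.88 and 11.87 in iPSCs, and miR-34c-5p, the most abundant, was lower (difference -0.75, standard error 0.20, adjusted p = 4.67e-03, limma). All 3 tested arms of the miR-103/miR-107 family, which are encoded in introns of the Pank genes, were higher. miR-107-3p (chr19:34820687-34820773) had 10.68, 10.90 and 11.12 in ESCs and 16.80 and 17.37 in iPSCs, and miR-103-3p had 18.46, 18.51 and 18.64 against 19.42 and 19.78, a difference of 1.06. The gap between the VST values of these near-identical miRNAs was 7.52 to 7.78 in ESC libraries and 2.41 and 2.62 in iPSC libraries. In MEFs miR-103-3p had a mean of 18.45 and miR-107-3p of 11.14.

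The let-7 family, which rises as pluripotent cells differentiate, had calls in both directions. Of 19 tested arms 3 were higher, 6 lower and 10 without a call (47.4% called, beside 75.8% over all miRNAs), with a median of -0.23, and the summed share was 6.68% to 8.52% in ESC libraries and 10.1% and 11.0% in iPSC libraries, against 18.3% to 21.8% in MEFs. The 6 lower include let-7a-1-3p and let-7c-2-3p, which have the same sequence and the same reads and are 1 measurement. Of the 9 main arms with the seed GAGGUAG, 2 were higher (let-7i-5p 1.44, let-7e-5p 0.83), 2 lower (let-7b-5p -0.93, miR-98-5p -0.63) and 5 had no call. let-7f-5p, the most abundant, had 19.10, 19.45 and 19.12 in ESCs and 19.40 and 19.51 in iPSCs (difference 0.23, standard error 0.16, adjusted p = 0.2, limma). The call of miR-98-3p (1.52, adjusted p = 0.0132, limma) was lost with only the 5 libraries and without iPSC 63 (1.30). The miR-15/miR-16, miR-23/miR-27/miR-24, miR-29 and miR-221/miR-222 groups had arms in both directions, with 4 higher and 5 lower of 13, 4 and 6 of 11, 2 and 2 of 6, and 2 and 2 of 4.

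**Figure D3:**
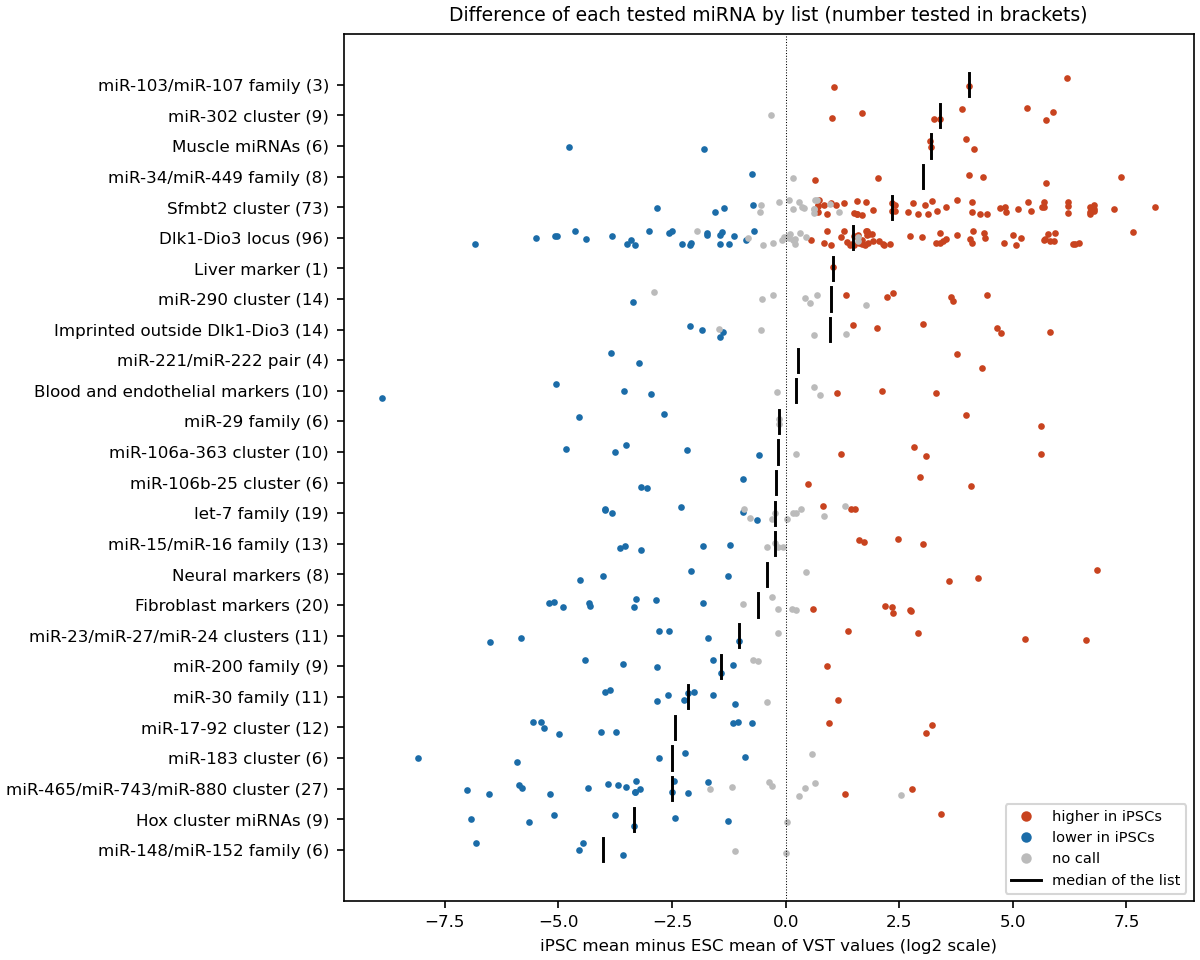
Difference between the iPSC and ESC means of the VST values (log2 scale, horizontal axis) for each tested miRNA of 26 lists, coloured by its call, with the median of each list as a black bar. The medians run from -4.02 in the miR-148/miR-152 family to 4.03 in the miR-103/miR-107 family, and most lists hold arms on both sides of 0.

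Markers of other cells were examined because all pluripotent cells grew on MEFs. Of 20 arms that mark fibroblasts 6 were higher in iPSCs, 9 lower and 5 without a call, with a median of -0.62. This is 75% called, beside 75.8% over all miRNAs. None of the 20 was at 0 in every library of a type. Their summed share was 13.8% to 16.3% in ESC libraries, 5.97% and 7.17% in iPSC libraries and 32.3% to 37.5% in MEF libraries. miR-143-3p had 19.88, 19.91 and 19.69 in ESCs, 14.80 and 14.45 in iPSCs and a mean of 21.29 in MEFs, and miR-21-5p had 21.35, 21.47 and 21.09 against 19.57 and 19.41. The 3p arms of miR-199a and miR-199b, which share their reads, went the other way, by 2.33 and 2.36. In bulk RNA fewer cells of a type and less RNA per cell cannot be told apart. miR-206-3p, a muscle miRNA that took up 10.0% of the reads of these MEFs, held 0.0346% of the reads in ESCs and 0.0132% in iPSCs. Of the muscle miRNAs 4 of 6 arms were higher in iPSCs and 2 lower, miR-1a-3p by 3.18 and miR-206-3p by -1.79. Neural markers had 3 arms higher and 4 lower of 8 (87.5% called), and blood and endothelial markers 3 higher and 4 lower of 10 (70% called), beside 39.8% higher and 36.1% lower over all miRNAs. Among the latter markers was miR-126-3p with 3278 to 4357 reads in ESC libraries and 5 and 24 in iPSC libraries. miR-122-5p, the liver marker, was higher by 1.04. The part of feeder cells or other cell types in the differences was not tested.

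**Figure D4:**
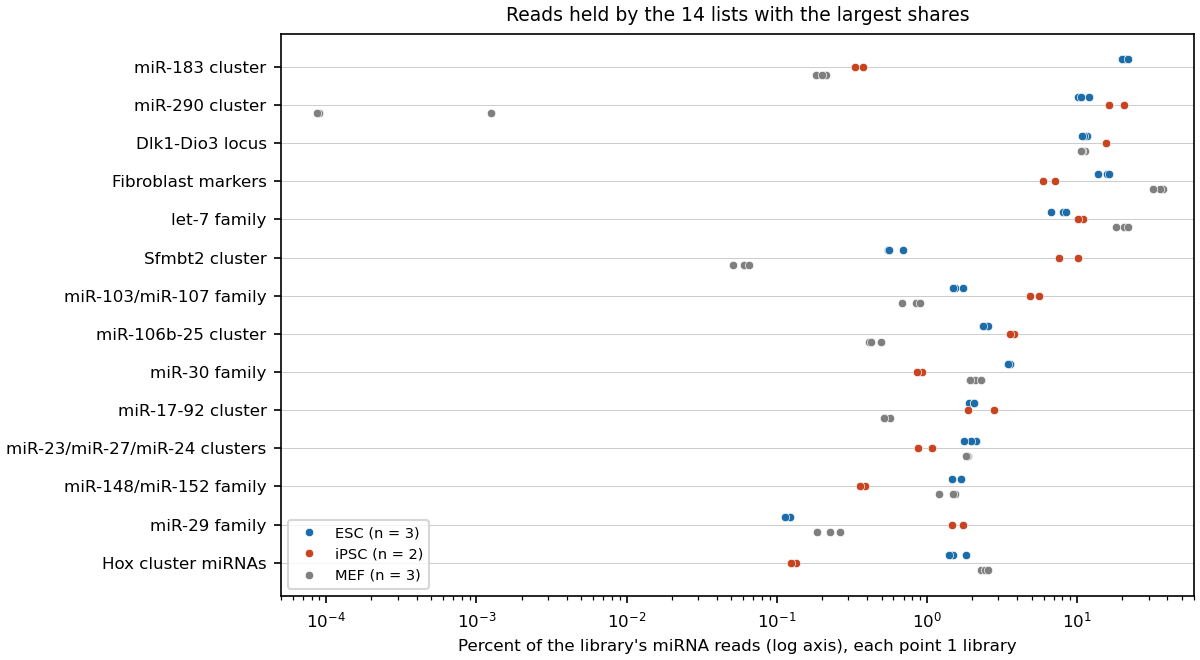
Percent of the miRNA reads of each ESC, iPSC and MEF library (log axis) held by the 14 lists with the largest shares, 1 point per library. The miR-183 cluster lies at 20.1% to 22% in ESCs and at 0.332% and 0.376% in iPSCs, and the Sfmbt2 cluster at 0.550% to 0.690% and at 7.54% and 10.1%.

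The arms of a hairpin come from 1 precursor, and their ratio within a library does not depend on how libraries are scaled. The ratio was tested in 263 hairpins with both arms at 10 or more reads in at least 2 libraries, as log2 of 5p over 3p reads with 0.5 read added to each (limma). It differed between iPSCs and ESCs in 201 hairpins (76.4%), toward 5p in 86 (32.7%) and toward 3p in 115 (43.7%), and by at least 1 in 196. Both arms were called in 155 hairpins, and in 58 of these in opposite directions, 22 with the 5p arm higher and 36 with the 3p arm higher. The arm with more reads was not the same in 62 hairpins, of which 60 had a called ratio. In 37 of the 60 the 5p arm led in ESCs and the 3p arm in iPSCs, and in 23 the reverse.

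Among the hairpins that moved most toward 3p, miR-376a had log2 ratios of 0.16, 0.35 and 0.17 in ESCs and of -8.56 and -9.0 in iPSCs (difference -9.01, standard error 0.33, adjusted p = 4.58e-09, limma). The VST of its 5p arm was 11.73 to 12.10 in ESCs and 7.31 and 7.27 in iPSCs, while its 3p arm went from 11.58, 11.60 and 11.93 to 15.86 and 16.26. miR-140 went from between -4.07 and -3.73 to -13.41 and -13.86. Its 3p arm rose from 1.18% to 4.95% of the reads, while its 5p arm fell from 0.0789% to 0.00038%. miR-222, with ratios of -1.45 to -1.05 in ESCs and 225 to 303 reads of its 5p arm against 521 to 630 of its 3p arm, stood at -9.21 and -9.64 in iPSCs. miR-106a, miR-466h and miR-297a changed by -9.19, -8.62 and -8.34, and in each the leading arm was 5p in ESCs; it was 3p in iPSCs for miR-466h and miR-297a. The size for miR-106a depends on the 0.5 read added, since ESC libraries held 1 to 3 reads of its 3p arm (-8.86 with 1 read added).

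Toward 5p, miR-381 of the Dlk1-Dio3 locus (chr12:109726822-109726896) had ratios of -12.51, -11.99 and -14.99 in ESCs and of -0.39 and 0.09 in iPSCs. Its 3p arm had 16.12, 16.27 and 16.22 in ESCs and 9.96 and 8.78 in iPSCs, and its 5p arm at most 4.33 in ESCs and 9.57 and 8.87 in iPSCs. The size of its change, 13.02, depends on the 0.5 read added, since ESC 4 held no read of the 5p arm. miR-301a changed by 9.65, from -7.43, -5.91 and -7.15 to 1.78 and 3.87, and miR-143 by 7.94, miR-540 by 7.76, miR-340 by 7.39 and miR-652 by 6.27. With 1 read added in place of 0.5 the last pair changed by 6.82 and 5.52, since iPSC 63 held no read of miR-340-3p and ESC libraries held 0 or 1 read of miR-652-5p. All hairpins named so far in this direction had at least 100 reads on both arms together in every ESC and iPSC library. miR-19a, which changed by 8.11, did not. In the miR-290 cluster the ratios of miR-290, miR-291a and miR-291b moved toward 5p by 3.96, 3.88 and 2.32. That of miR-292 moved toward 3p (-4.66). The ratio of miR-294 moved by 2.08 (adjusted p = 0.0331, limma) but without a call when any 1 library was left out (1.97 to 2.18). Those of miR-295 (2.74, adjusted p = 0.0545, limma) and miR-293 (0.28) had no call. The ratio of miR-295 was -6.04 ± 0.24 in ESCs (SD, n = 3) and -3.30 ± 0.17 in iPSCs (SD, n = 2). The spread in the model includes the MEF libraries, where its SD was 2.83 at 0 to 22 reads of the 3p arm. The ratios of miR-302a, miR-302c and miR-302d, at 0.60, 1.73 and -0.12, had no call, and both arms of each hairpin were higher in iPSCs. The ratio of miR-302b moved toward 5p (4.98, adjusted p = 3e-05, limma), with the 5p arm higher and the 3p arm without a call. Its size and its small spread in ESCs depend on the 0.5 read added, since no ESC library held a read of miR-302b-5p.

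Ratios in the other cell types were set beside these. The median size of the difference over the 263 hairpins was 2.67 for iPSCs against ESCs, 2.52 for NT-ESCs against ESCs and 2.68 for NT-iPSCs against ESCs, comparisons that share the ESC libraries. It was 0.71 for MEFs against ESCs and 2.43 for iPSCs against MEFs. Between the types made from MEFs it was 0.42 for NT-ESCs against iPSCs and 0.39 for NT-iPSCs against iPSCs. Single replicate libraries differed by 0.33 to 0.44, which is no direct measure for these values, since means of 2 libraries vary less. A size of at least 1 was reached by 207 hairpins between iPSCs and ESCs, 96 between MEFs and ESCs, 35 between NT-ESCs and iPSCs, 48 between NT-iPSCs and iPSCs and 36 to 49 between single replicate libraries. By this measure ESCs lay nearer to MEFs than to iPSCs, NT-ESCs or NT-iPSCs, although the MEFs are the source of the latter. For miR-376a the MEF libraries had 0.58 to 1.12, near the ESCs, and the means of NT-ESCs and NT-iPSCs were -9.72 and -8.86, near the iPSCs. The VST levels gave another order, with a median size of 1.74 for MEFs against ESCs, 2.05 for iPSCs against ESCs and 2.97 for iPSCs against MEFs. The paper's description of the sequencing sets the same libraries apart. Every iPSC, NT-ESC and NT-iPSC library had more total reads and a smaller percentage of reads without an insert than any ESC or MEF library. No label gives a date or kit for the libraries, and the part of library preparation was not tested.

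**Figure D5:**
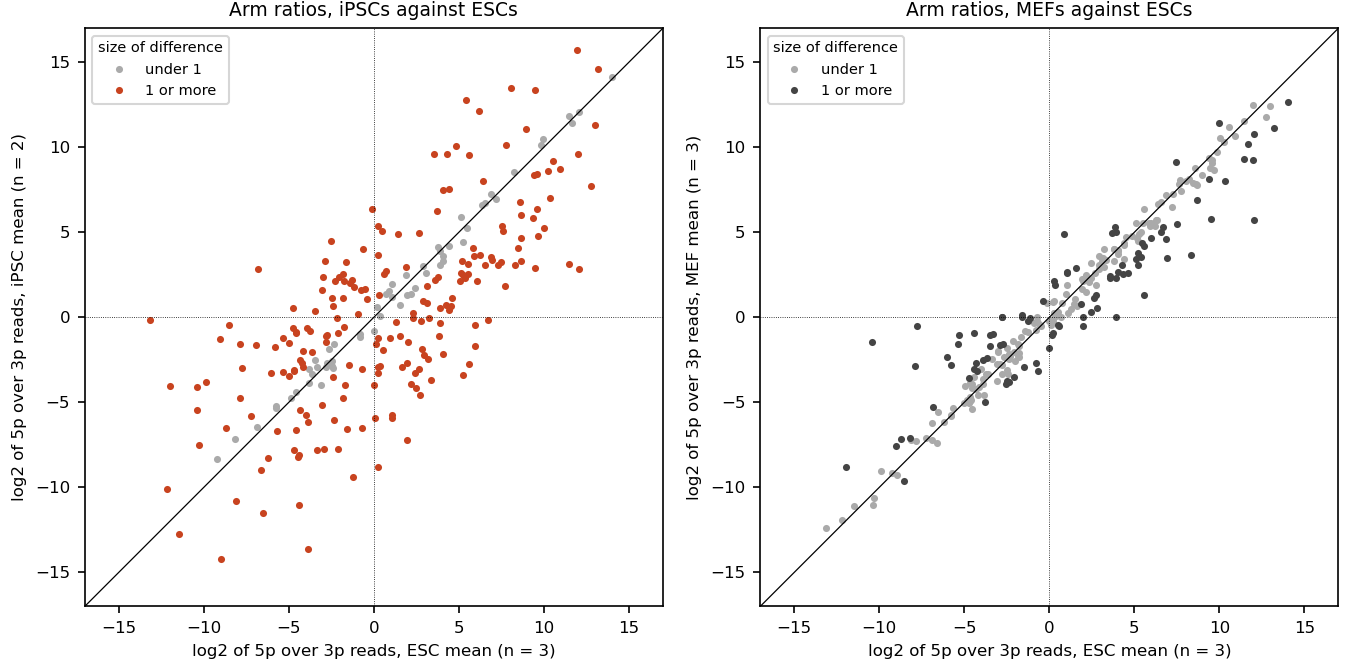
Mean log2 ratio of 5p to 3p reads of 263 hairpins in ESCs (horizontal axis) against iPSCs (left) and MEFs (right), 1 point per hairpin, coloured where the difference is 1 or more, with the line of equality. In the left panel 207 hairpins lie at least 1 from the line, in the right panel 96.

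The mature sequences were examined for what miRNAs of each direction share, a description made after the values were seen. RefSeq held the sequence of 659 of the 864 miRNAs and of 549 tested miRNAs, of which 36.8% were higher and 39.9% lower in iPSCs. The first, second and each of the last 3 bases, the number of purines among the last 3, the length and the arm were examined. Of 87 miRNAs with no purine (A or G) among the last 3 bases, 55.2% were higher and 21.8% lower, with a median difference of 1.49. With 1, 2 and 3 purines the medians were 0.54, -1.15 and -1.49, and of the 58 with 3 purines 20.7% were higher and 60.3% lower. The same groups had medians of 0.64, 0.57, 0 and -0.42 for MEFs against ESCs and of 0.085, -0.18, -0.021 and -0.25 for NT-ESCs against iPSCs. For iPSCs against MEFs they were 1.03, 0.11, -0.83 and 0.13, where the group with 3 purines did not lie lowest. Examples from the leading miRNAs, with the last 3 bases in capitals, are a higher one with no purine and a lower one with 3.
miR-665-3p: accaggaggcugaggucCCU
miR-196a-5p: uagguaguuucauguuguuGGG

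By first base, the medians were 0.60 for A, -0.13 for C, -0.54 for G and -0.37 for U, and by second base -0.30, 0.092, 0.22 and -0.76 in the same order. By arm, 30.6% of 5p arms were higher and 44.9% lower, and 41.7% of 3p arms were higher and 37.5% lower. By length, the medians were 0.18 under 22 bases, 0.012 at 22 and -0.62 over 22. These groups overlap in their miRNAs and include families with related sequences, so their members are not independent. The miRNAs of the miR-17 family shown above illustrate this, since most of its members end in the same bases.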

How the data were processed

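Small RNA of 12 libraries was sequenced (Solexa) by a service company. The authors cleaned the reads of adaptor sequence, poor quality and contamination, annotated them to miRNAs (the labels name mm8) and applied the DESeq normalization and its variance stabilizing transformation. The aligner and miRBase release are not given in the sources used here. The authors deposited these log2 values, 1 per miRNA and library. Names were taken as deposited.

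Inverting the transformation gave whole reads within 0.05 read for 100% of 9458 nonzero values, used for depth (4863365 to 6088839 miRNA reads per ESC or iPSC library), filters, shares and arm ratios. Values were compared with limma 3.58.1 (R 4.3.3), a mean for each of 5 groups in all 12 libraries, empirical Bayes with trend (none for arm ratios), and Benjamini-Hochberg adjustment at 0.05. The procedure was tested on simulated data. Summaries used Python 3.11.15. Sequences and positions are those of RefSeq and GENCODE M21 (GRCm38.p6). Tests used the deposited log2 values, with limma-voom on the recovered reads as an alternative.

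The comparison, the 26 lists and the rules were chosen with earlier results of these data known. Named miRNAs included, in each direction, the 10 with the smallest p among called miRNAs without overlap. These had a minimum of 100 reads in each library of the higher type. Also named were the miR-290, miR-302, miR-17-92, miR-183 and fibroblast lists and the 10 most abundant miRNAs of each type. In each direction the 6 hairpins with the largest called change of the arm ratio were taken. Only hairpins with at least 100 reads on both arms together in every ESC and iPSC library qualified. From other lists the member that differed most in each direction was named. Others named were picked out after their values were seen. Alternatives were other scalings, transformations, filters and sets of libraries, and each replicate left out.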

Additional observations from a re-analysis of the deposited data

How the results depend on the processing

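The count of miRNAs differing between iPSCs and ESCs lay between 394 and 597 over 16 settings. These include the main fit, which gave 555. The count lay between 520 and 543 when each library was left out. The 100-read filter gave 394 of 465 tested. Upper quartile scaling and scaling by library totals shifted the median difference by 0.152 and 0.419. The count of arm ratios, 201, moved to 122 of 158 hairpins with at least 100 reads required on both arms, where fewer hairpins were tested, and lay between 180 and 196 when each library was left out. For named miRNAs 2047 repeats kept direction and side of the threshold, 28 lost a call, 15 gained one and 17 changed sign. Small differences without a call changed sign: with scaling by library totals let-7a-5p (0.188), miR-199b-5p (0.113), miR-21-3p (0.256), miR-290-3p (0.136), miR-302b-3p (0.0915) and miR-540-3p (0.33); with the 10 most abundant left out let-7a-5p (0.0452), miR-21-3p (0.113) and miR-540-3p (0.187); with upper quartile scaling miR-21-3p (0.00206) and miR-540-3p (0.0761). Leaving out 1 library at a time gave -0.277 (without iPSC 62) to 0.726 for miR-145-5p, -0.453 to 0.128 (without iPSC 63) for miR-21-3p, -0.143 (without ESC 2; -0.0542 without iPSC 63) to 0.393 for miR-31-5p, -0.333 to 0.156 (without iPSC 62; 0.0575 without ESC 4) for miR-540-3p, -0.616 (without iPSC 62) to 1.15 for the 5p to 3p ratio of miR-20a, -0.0934 (without iPSC 62) to 0.649 for the 5p to 3p ratio of miR-293, -0.272 to 0.119 (without ESC 3; 0.00797 without iPSC 63) for the 5p to 3p ratio of miR-302d, and -0.14 (without iPSC 62) to 0.79 percentage points for the read share of the miR-17-92 cluster. The cause of these changes was not tested. Depth limits miRNAs of few reads, where the transformation compresses differences. No paired analysis was possible because no replicate number in the labels occurs in more than 1 group.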

Other observations

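Seed families were counted among the tested miRNAs with a RefSeq sequence. The miR-181 family (ACAUUCA), known from lymphoid cells and differentiation, had 3 of 4 members higher in iPSCs and 1 without a call. Its differences ran from 0.39 to 2.05. Over all miRNAs 75.8% were called, near the share in this family, with 39.8% higher and 36.1% lower. The miR-15 and miR-16 seed AGCAGCA, known for restraining the cell cycle, had 3 of 4 members lower and 1 without a call, from -3.19 to -0.16. Its called share was also near that over all miRNAs. Of the related main arms with no matched sequence, miR-497-5p was higher by 1.60 and miR-195-5p differed by -0.24 with no call. In the miR-29 family, whose targets include collagen and DNA methyltransferase messages, the 3p arms carry 1 seed, yet miR-29a-3p and miR-29c-3p were higher by 3.97 and 5.63 while miR-29b-3p differed by -0.14 with no call.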
